A study of Mus musculus with 12 samples.

Results

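Ubiquitin-specific proteases are the largest family of deubiquitinases, the enzymes that remove ubiquitin from proteins. The members were taken as protein-coding genes in the mouse annotation whose symbol is Usp followed by a number, which gave 55 members among 55416 gene identifiers, of which 21928 are protein-coding. Usp6nl met the rule by its letters, although it encodes a GTPase-activating protein of Rab GTPases and not a protease. The members were measured in bulk RNA sequencing of the gastrocnemius, a calf muscle, and of the hypothalamus, the brain region that governs feeding and energy balance, with 3 libraries in each of 4 groups. All mice were male BALB/c mice, 7 weeks old by the labels. The CT-26 mice, labelled cachectic, carried a colon carcinoma line of mouse origin (CT-26) under the skin of the abdomen, and the control mice, labelled normal, received no tumour. Per the labels' protocols, the tumour-bearing animals weighed 7 to 10% less than healthy ones by day 10, and tissues were taken on day 25. The 4 groups are the gastrocnemius of CT-26 mice and of control mice, then the hypothalamus of CT-26 mice and of control mice. Muscle and hypothalamus of one number came from one mouse, and the collection day of the control mice is not given in the sources used here. All CT-26 mice received 1 tumour line, so the comparison covers that single tumour model.

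Attached to a protein as a chain, ubiquitin can send it to the proteasome, the cell's main protein-degrading machine, or alter its traffic, activity or partners. Ubiquitin-specific proteases are mostly cysteine proteases that cut ubiquitin off again, so they can spare a substrate, edit a signal or recycle ubiquitin. Degradation by ubiquitin and the proteasome accounts for much of the protein loss of wasting muscle, and several members, among them Usp14 at the proteasome, Usp19 at the endoplasmic reticulum and Usp2 in the circadian clock, have been studied in muscle or metabolism. These data measure transcripts and hold no value for protein or enzyme activity.

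Each muscle library held 26015741 to 42771331 expected counts, and each hypothalamus library 27195316 to 52535761. Levels of one gene across libraries are given as CPM, its counts relative to the TMM-scaled library size, and levels of different genes are set side by side only in TPM, which accounts for transcript length. Of the 8 muscle fibre markers all 8 were measured in the gastrocnemius, with a summed level of 67300 to 113500 CPM in CT-26 and 123500 to 157000 CPM in control libraries, and 3 of them fell. All 8 hypothalamus markers were measured in the hypothalamus. Markers of other cells moved in the gastrocnemius as well. All 6 tested neutrophil markers rose, with a sum of 21.8 to 146.1 CPM in CT-26 and 0.511 to 0.889 CPM in control libraries, and all 5 erythroid markers rose (806.2 to 843.7 CPM in CT-26 against 198.3 to 432.5 CPM in control libraries). Of 6 macrophage markers 2 rose, Lyz2 by 1.10 and Itgam by 1.71 (adjusted p = 0.04692 and 0.02485), and 0 fell, with a sum of 46.0 to 144.4 CPM in CT-26 against 56.6 to 67.95 CPM in control libraries. The lowest CT-26 library for this list was that of mouse 2, which also stood apart from its group, with a chi-square per gene of 176.0 and 175.6 against the other CT-26 muscle libraries, which differed from each other by 93.1. Among control muscle libraries that of mouse 3 stood apart, at 69.95 and 109.5 against mice 1 and 2, which differed from each other by 21.9. Of the fibroblast markers 5 of 6 fell (312.2 to 410.6 CPM in CT-26 against 714.5 to 1129 CPM in control libraries), all 5 adipocyte markers fell (12.6 to 17.9 CPM in CT-26 against 65.7 to 85.6 CPM in control libraries), and 4 of 5 Schwann cell markers fell (38.6 to 51.1 CPM in CT-26 against 90.7 to 121.7 CPM in control libraries). In the hypothalamus 5 of 6 tested neutrophil markers rose (13.1 to 99.1 CPM in CT-26 against 4.41 to 5.77 CPM in control libraries), 5 of 5 erythroid markers rose (560.7 to 703.4 CPM in CT-26 against 242.3 to 384.4 CPM in control libraries) and 4 of 5 oligodendrocyte markers fell (1526 to 1740 CPM in CT-26 against 2365 to 2652 CPM in control libraries). None of these listed markers was at 0 in every library of a tissue. The part of these cells in the results on the members was not tested. In bulk tissue, fewer cells of a type and less RNA per cell cannot be told apart.

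Most members were transcribed in both tissues. Between 38 and 41 members reached 1 TPM in the CT-26 gastrocnemius libraries and 38 or 39 in the control gastrocnemius libraries, against 46 in each CT-26 and 45 or 46 in each control hypothalamus library. The 5 Usp17l copies, a tandem group on chromosome 7, had 0 counts in all 12 libraries, and the X-linked Usp26 had 1 count in all. A count of 0 over the 3 libraries of a group allows up to 0.0279 to 0.0338 CPM, for counting error only. Usp44, which acts in the nucleus and in mitosis, had 1 to 5 counts per library. Usp9y, the Y-linked copy of Usp9x, had 0 to 24, and reads of these near-identical copies can be split between them by the counting. In all, 43 members in the gastrocnemius and 47 in the hypothalamus passed the low-count filter and were tested.

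The sum over the family stood higher in CT-26 muscle and was level in the hypothalamus. It was 1209, 927.7 and 847.6 TPM in the CT-26 gastrocnemius libraries, against 677.0, 698.5 and 580.5 TPM in the control libraries, so the groups did not overlap. TPM stood higher for genes at large in CT-26 muscle, with a median log2 difference of 0.35 over all genes in log2(TPM + 0.5). The gap is therefore partly shared with other genes. On the TMM scale the sum was 2848 ± 282.4 CPM (SD, n = 3) for CT-26 muscle and 2416 ± 95.3 CPM (SD, n = 3) for control muscle. In the hypothalamus it was 1175 ± 20.95 TPM in CT-26 mice, against 1198 ± 14.9 TPM in control mice (SD, n = 3 each). The sums rest on a few abundant members: in muscle, the 3 highest members held 33.7% of the family's TPM in CT-26 mice and 37.3% in control mice.

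In the gastrocnemius, 12 of the 43 tested members rose in CT-26 mice and 2 fell by edgeR's quasi-likelihood test at an adjusted p below 0.05. The members that rose were Usp46, Usp28, Usp47, Usp53, Usp42, Usp14, Usp16, Usp3, Usp39, Usp20, Usp30 and Usp1, and those that fell were Usp2 and Usp9x. The shares were 27.9% higher and 4.65% lower, beside 19.6% and 18.3% of all 14265 genes tested and 38.0% in either direction, so that fewer than the background share of members fell. The median log2 fold change of CT-26 over control was 0.19 for the members and -0.0015 for all genes. Groups did not overlap for 16 members that stood higher in all CT-26 libraries (37.2%, against 26.3% of all genes) and for 4 that stood lower (9.30%, against 25.3%).

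**Figure D1:**
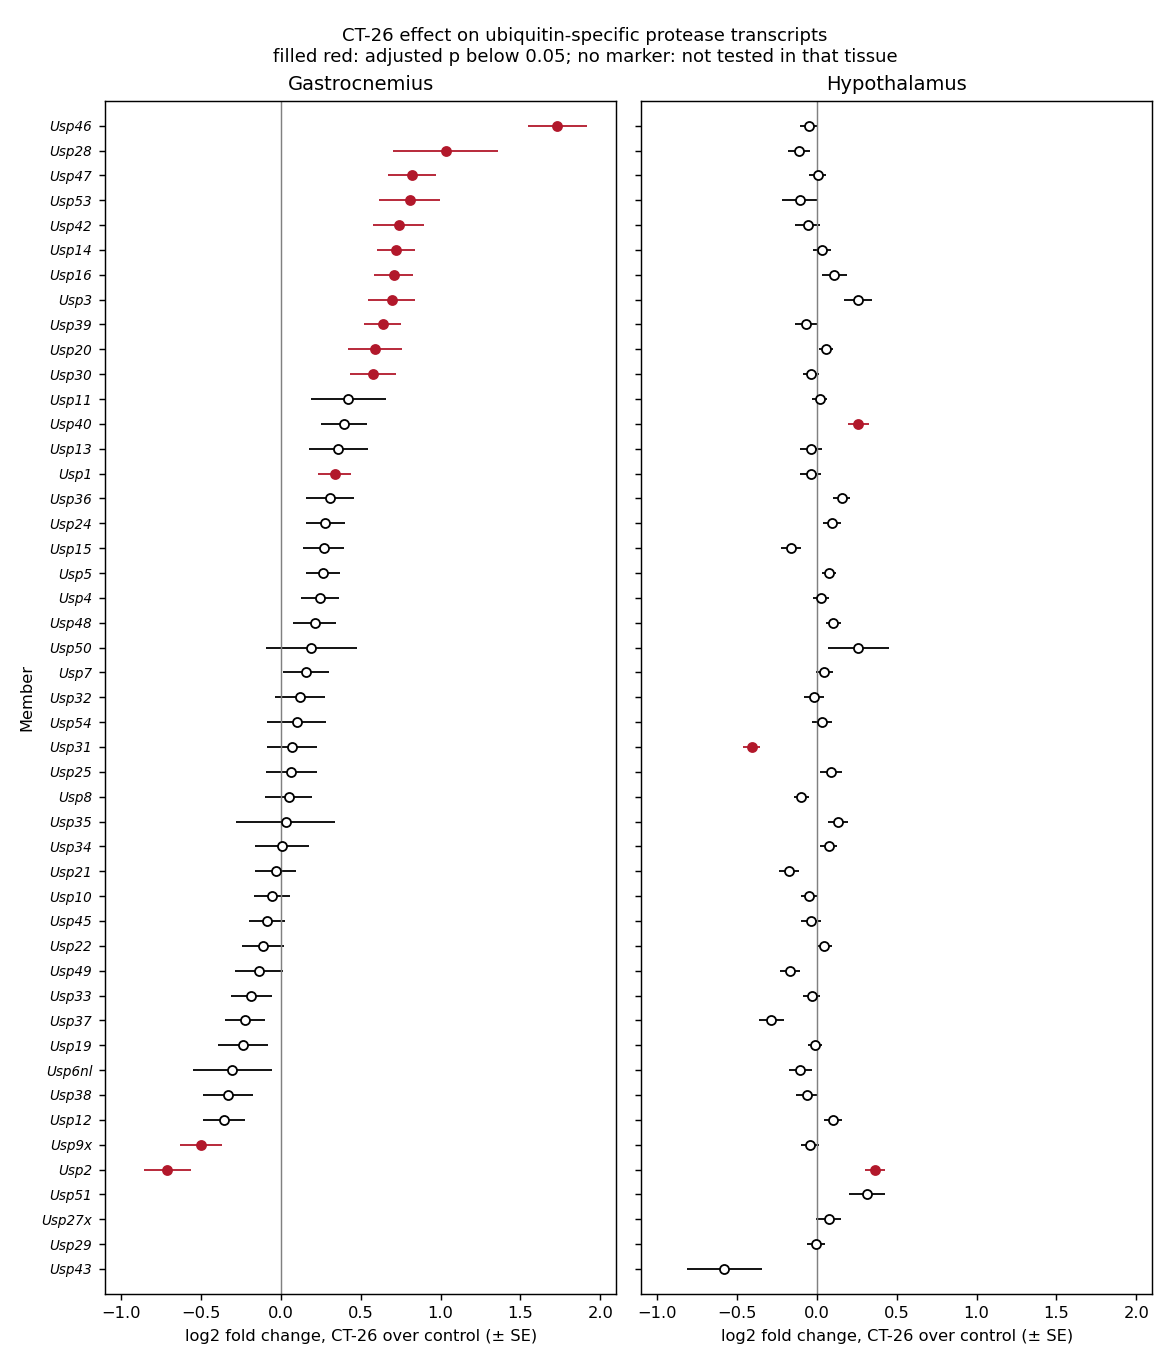
Log2 fold change of CT-26 over control with its standard error for each tested member (rows, in the order of the muscle values), in the gastrocnemius (left) and hypothalamus (right), with filled red points for an adjusted p below 0.05. In muscle the called members reach from -0.71 for Usp2 to 1.73 for Usp46, while in the hypothalamus 3 members are called and Usp2 lies on the other side of 0.

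The scaling moved these counts. With library totals alone in place of TMM the median of all genes moved to 0.20 and 19 members were called higher and 1 lower, and with limma on log2(TPM + 0.5) the median of all genes was 0.35, with 21 higher and 0 lower at the adjusted and also at the unadjusted threshold. Taken relative to the median of all genes, the members' median was 0.19 for counts scaled either way and 0.17 for TPM. All 12 higher calls were made under each of 4 scalings, including DESeq2's size factors within edgeR. The full DESeq2 fit called 11 members higher and 2 lower. Relative to the median of all genes Usp2 stood at -0.71 under TMM, library totals and TPM alike, and Usp9x at -0.50, -0.50 and -0.24.

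The promoters of the member with the highest and of the member with the lowest muscle fold change, and of a muscle-called member whose promoter holds an E-box, are shown here from 250 bases before to 50 bases after the RefSeq start on build GRCm38.p6. An E-box, CACGTG, is the site bound by CLOCK and BMAL1, the activators of the circadian clock, among other factors, and it is in capitals. Usp46 lies on chr5:74068362-74068661, minus strand, Usp2 on chr9:44084670-44084969, plus strand, where the start used by RefSeq lies inside the longer GENCODE gene, and Usp16 on chr16:87454735-87455034, plus strand.
Usp46: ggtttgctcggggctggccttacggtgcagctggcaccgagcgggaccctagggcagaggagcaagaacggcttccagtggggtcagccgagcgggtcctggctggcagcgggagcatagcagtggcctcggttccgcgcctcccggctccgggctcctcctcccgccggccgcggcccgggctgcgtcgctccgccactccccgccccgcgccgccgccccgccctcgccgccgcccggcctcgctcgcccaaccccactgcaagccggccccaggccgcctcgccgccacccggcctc
Usp2: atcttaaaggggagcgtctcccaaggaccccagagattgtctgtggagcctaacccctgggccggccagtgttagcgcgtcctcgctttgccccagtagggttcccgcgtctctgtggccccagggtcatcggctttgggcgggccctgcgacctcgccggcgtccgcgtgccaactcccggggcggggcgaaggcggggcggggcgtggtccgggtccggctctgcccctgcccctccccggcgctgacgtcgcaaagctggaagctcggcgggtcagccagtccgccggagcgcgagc
Usp16: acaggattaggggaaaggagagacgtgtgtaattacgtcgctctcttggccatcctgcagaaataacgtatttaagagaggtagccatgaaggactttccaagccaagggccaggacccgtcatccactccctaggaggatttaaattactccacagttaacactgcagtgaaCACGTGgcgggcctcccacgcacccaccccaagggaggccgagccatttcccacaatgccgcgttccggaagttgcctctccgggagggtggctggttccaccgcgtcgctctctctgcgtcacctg
The E-box of Usp16 begins at -77 from the start. Across the 44 promoters found for 43 members, 5 held an E-box (those of Usp16, Usp31, Usp32, Usp4 and Usp6nl), beside 7.15% of all 32851 promoters. The FOXO motif TGTTTAC, like the E-box read on both strands, was in 0 of the 44, beside 3.65% of all, so no member promoter held both motifs. The member promoters had a median GC content of 64.0% and 25 CpG pairs, against 52.7% and 7 for all promoters. A match is a description of these letters and does not show that a factor binds. Each window shown covers 1 start of its gene. Its last 25 bases occur in 2 of 6 GENCODE transcripts of Usp46, 1 of 9 of Usp2 and 3 of 11 of Usp16. Other starts of these genes were not searched, so a motif there would be missed.

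Usp46 had the highest fold change of the family in muscle. It encodes a deubiquitinase that works with the WD-repeat proteins WDR48 and WDR20 and is known for acting on glutamate receptors in the nervous system. It had 26.5, 39.5 and 28.5 CPM in CT-26 muscle, against 10.7, 9.71 and 8.03 CPM in control muscle. The lowest CT-26 library was above the highest control library, and the level was 3.32-fold higher (log2 1.73 ± 0.19 SE, adjusted p = 0.0005157). Leaving out any 1 library kept the call, with log2 fold changes of 1.53 to 1.85. These values rest on 952 to 1252 counts per CT-26 library and 226 to 292 per control library. In the hypothalamus Usp46 had 75.1, 82.6 and 82.0 CPM in CT-26 mice, against 83.0, 81.9 and 83.5 CPM in control mice, overlapping groups with a log2 fold change of -0.05 ± 0.05 (adjusted p = 0.5791). The difference between the tissues' CT-26 effects was 1.77 ± 0.20 on the log2 scale (adjusted p = 6.261e-05).

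Its relatives that share the WDR48 partner did not all follow. Usp1, which removes ubiquitin from the DNA-repair proteins FANCD2 and PCNA, had 19.8, 20.95 and 19.6 CPM in CT-26 muscle and 16.6, 15.7 and 15.5 CPM in control muscle. The groups were apart and the rise was 0.34 ± 0.11 (adjusted p = 0.03654), a call lost on leaving out any library but the third CT-26 one, with adjusted p values up to 0.1337. Usp12, the closest relative of Usp46, had 20.4, 16.4 and 19.2 CPM in CT-26 muscle, against 21.7, 23.6 and 26.2 CPM in control muscle. Its CT-26 values were the lower ones without overlap, but it was not called (-0.35 ± 0.13, adjusted p = 0.06459). Usp45 and Usp48, grouped with DNA repair and chromatin, were not called either, at -0.09 and 0.21. Usp1, Usp12, Usp28, Usp45, Usp46 and Usp48 formed a list of 6 members that partner with WDR48 or are tied to DNA repair. Of these, 3 rose and 0 fell, with a median of 0.27, beside the 19.6% higher and 18.3% lower of all genes tested in muscle.

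Usp28, a nuclear deubiquitinase known for stabilising MYC and for binding the DNA-damage protein 53BP1, had 182.4, 61.5 and 119.4 CPM in CT-26 muscle, against 58.2, 61.2 and 58.5 CPM in control muscle. The 3 control values were nearly equal, while the second CT-26 library stood at the upper control level and the first was far above. The log2 fold change was 1.03 ± 0.33 (adjusted p = 0.03732), and 0.61 without CT-26 mouse 1 (adjusted p = 0.1092). The call was lost on leaving out any library other than the second CT-26 one, and without that library the value was 1.34. Usp25, the paralogue of Usp28 with a splice form known from muscle, had 117.2, 143.1 and 99.6 CPM in CT-26 muscle and 121.0, 122.4 and 100.3 CPM in control muscle. These groups overlapped fully, with a log2 fold change of 0.07 ± 0.16 (adjusted p = 0.7703).

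Among the members that handle chains and serve the proteasome, Usp14 rose. Usp14 sits on the proteasome's regulatory particle and trims chains from substrates. It had 69.3, 71.9 and 61.7 CPM in CT-26 muscle, against 43.8, 38.4 and 40.9 CPM in control muscle. All CT-26 libraries were above all control libraries, by 0.72 ± 0.12 on the log2 scale (adjusted p = 0.00259), and the value stayed between 0.67 and 0.78 on leaving out 1 library. Its 3′ end overlaps Thoc1 on the other strand by 2424 bases, and the strand setting of the counting is not given in the sources used here, so some reads may belong to Thoc1. Thoc1 had 2571 unscaled counts over the CT-26 and 1435 over the control muscle libraries. In the hypothalamus Usp14 had 176.3, 190.3 and 185.4 CPM in CT-26 mice, against 189.7, 169.9 and 180.4 CPM in control mice (log2 0.03, adjusted p = 0.7652). The other enzymes of the proteasome's regulatory particle, which are not members, also rose in muscle: Uchl5 by 0.78 ± 0.11 (adjusted p = 0.001566) and Psmd14 by 0.65 ± 0.11 (adjusted p = 0.002978). Psmd2, a scaffold subunit of the particle, rose by 1.40 (adjusted p = 0.0002871).

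Usp5, which takes apart free ubiquitin chains, stood above control in every CT-26 library of muscle, at 57.9, 58.6 and 53.4 CPM in CT-26 mice against 49.2, 46.3 and 45.7 CPM in control mice, but did not pass (0.27 ± 0.11, adjusted p = 0.08376). Usp13, its relative, is one of the most abundant members in muscle. It had 630.0, 396.7 and 547.4 CPM in CT-26 muscle, against 416.6, 416.2 and 393.9 CPM in control muscle. The second CT-26 library lay among the controls and the other two above them, and the log2 fold change of 0.36 ± 0.18 was not called (adjusted p = 0.1555). Leaving out CT-26 mouse 2 gave 0.52 (adjusted p = 0.0235). With TPM it was called, at 0.91 (adjusted p = 0.01129), on a scale where the median of all genes was 0.35. Its weighted transcript length, by which TPM divides, was shorter in CT-26 muscle.

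Of the 9 tested members listed under chromatin, nucleolus and nucleus, 3 rose and 0 fell, with a median of 0.16, beside 19.6% and 18.3% of all genes. Other members with nuclear roles, such as Usp28, were listed in other groups. Usp16, a deubiquitinase of histone H2A that acts around mitosis and in the cytoplasm, had 88.9, 87.8 and 85.5 CPM in CT-26 muscle, against 59.3, 53.6 and 47.9 CPM in control muscle. The groups were well apart, by 0.71 ± 0.12 (adjusted p = 0.003048). Usp16 shares 192 bases with Cct8 on the other strand, which had 9263 unscaled counts over the CT-26 and 6284 over the control muscle libraries. Usp3, another H2A deubiquitinase, had 17.1, 15.4 and 14.6 CPM in CT-26 muscle, against 8.95, 11.4 and 8.74 CPM in control muscle, a rise of 0.69 ± 0.15 (adjusted p = 0.007266). Usp42, a nuclear enzyme linked to p53, had 12.7, 13.6 and 10.3 CPM in CT-26 muscle, against 7.49, 8.03 and 6.40 CPM in control muscle, a rise of 0.74 ± 0.16 (adjusted p = 0.007858). For both genes every CT-26 library lay above every control library.

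The other tested members of this chromatin and nucleus list were not called in muscle. Usp22 removes ubiquitin from histone H2B in the SAGA coactivator complex, and had 17.2, 14.7 and 14.5 CPM in CT-26 muscle, against 18.2, 17.1 and 14.9 CPM in control muscle (-0.11, adjusted p = 0.5317). Usp7, the regulator of MDM2 and p53, had 91.1, 86.7 and 66.2 CPM in CT-26 muscle, against 72.7, 77.5 and 68.5 CPM in control muscle (0.16, adjusted p = 0.4254). Both pairs of groups overlapped. Usp21, Usp36, Usp37 and Usp49 lay between -0.22 and 0.31.

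**Figure D2:**
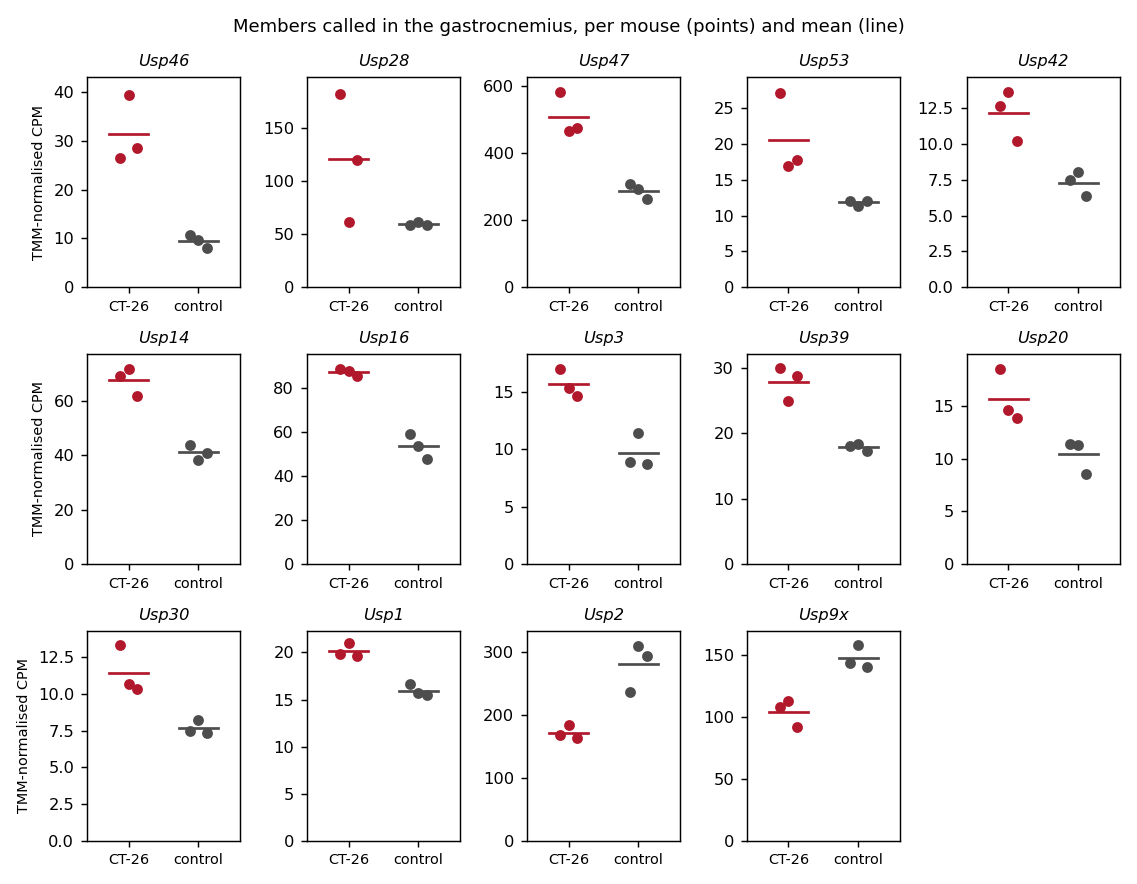
TMM-normalised CPM (vertical axes, each from 0) of the 14 members called in the gastrocnemius, with 1 point per mouse and a line at the mean, CT-26 in red and control in grey. In every panel the groups do not overlap, and Usp28 stands out by its scatter in CT-26 muscle, from 61.5 to 182.4 CPM against 58.2 to 61.2 CPM in control muscle.

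Usp30, Usp20 and Usp19 are among the 7 members placed at membranes, of which 2 rose and 0 fell, with a median of 0.05, beside the same 19.6% and 18.3% of all genes. Usp30 sits on the outer mitochondrial membrane and restrains the removal of damaged mitochondria. It had 13.3, 10.7 and 10.3 CPM in CT-26 muscle, against 7.45, 8.25 and 7.36 CPM in control muscle. The groups were apart, by 0.58 ± 0.15 (adjusted p = 0.01583), a call lost when control mouse 1 was left out (adjusted p = 0.06572), and likewise control mouse 3 (adjusted p = 0.05508). Svop overlaps Usp30 on the other strand by 26110 bases and had 1 count over the CT-26 and 2 over the control muscle libraries. Over the hypothalamus libraries it had 11255 counts in CT-26 and 8769 in control mice. With the strand setting not given, some hypothalamic Usp30 reads may belong to Svop. That limit holds for the Usp30 values of the hypothalamus and for its differences between tissues.

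Usp20, known for recycling beta-adrenergic receptors, had 18.5, 14.6 and 13.9 CPM in CT-26 muscle and 11.4, 11.3 and 8.53 CPM in control muscle. Its groups were apart by 0.59 ± 0.17 (adjusted p = 0.02508), with the call lost on leaving out CT-26 mouse 1 or any control mouse (adjusted p = 0.05363 to 0.08144). Usp33, its close relative, was not called (-0.19, adjusted p = 0.2857). Usp19 is anchored at the endoplasmic reticulum in one of its forms and has been tied to muscle wasting in rodents. It had 133.3, 150.7 and 103.4 CPM in CT-26 muscle, against 151.8, 156.1 and 148.9 CPM in control muscle. The CT-26 values reached into the control range, and the log2 fold change of -0.24 ± 0.15 was not called (adjusted p = 0.2552). It was -0.05 with library totals and 0.13 with TPM, scales on which the median of all genes was 0.20 and 0.35, and was not called on either. Usp8, the endosomal deubiquitinase of growth factor receptors, was at 0.05 ± 0.15 (adjusted p = 0.8144), while Hgs, which recruits it to the endosome through the STAM proteins, rose by 2.40 ± 0.21 (adjusted p = 0.0002812). Stam and Stam2, the genes of those proteins, were not called, at 0.17 and 0.18 (adjusted p = 0.3625 and 0.4709). Usp8 overlaps Usp50 on the other strand by 50202 bases, so reads of both may be mixed.

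In the signalling and stress group 1 of 12 tested members rose and 2 fell, with a median of 0.05, beside 19.6% higher and 18.3% lower of all genes. Usp47, which acts on the DNA-repair polymerase beta, had 579.7, 463.4 and 475.0 CPM in CT-26 muscle, against 306.0, 290.6 and 262.4 CPM in control muscle. The lowest CT-26 value was far above the highest control value, a rise of 0.82 ± 0.15 (adjusted p = 0.003909). By TPM it held 11.7% of the family's sum in CT-26 muscle and 7.78% in control muscle. Its mean in CT-26 muscle was the highest of the family by a margin far under the SD, and it was the highest member in none of the 3 libraries: Usp13 led in mice 1 and 3, and Usp2 in mouse 2. Usp15, which acts on the SMAD pathway, had 160.5, 157.5 and 136.2 CPM in CT-26 muscle, against 122.0, 136.3 and 118.9 CPM in control muscle. The lowest CT-26 value fell just inside the control range, and 0.27 ± 0.13 was not called (adjusted p = 0.1282). It was called with library totals (0.46, adjusted p = 0.03004), with TPM (0.86, adjusted p = 0.007456) and with the spread of all 12 libraries (0.26, adjusted p = 0.04786). The median of all genes was itself 0.20 with library totals and 0.35 with TPM. Usp10, a partner of the stress granule protein G3BP1, had 38.6, 41.0 and 35.4 CPM in CT-26 muscle, against 39.8, 41.5 and 38.0 CPM in control muscle (-0.05, adjusted p = 0.7328). The overlapping same-strand gene Gm20388 spans 46720 bases of Usp10, so Usp10 counts are uncertain. Gm20388 had 3417 unscaled counts over the CT-26 and 1596 over the control muscle libraries.

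Usp9x fell in muscle on the count scale. It encodes a large deubiquitinase that protects MCL1 and several signalling proteins. It had 107.9, 112.7 and 91.7 CPM in CT-26 muscle, against 143.4, 157.8 and 139.8 CPM in control muscle. All CT-26 values were below all control values, by -0.50 ± 0.13 (adjusted p = 0.01756). Leaving out control mouse 1 ended the call (adjusted p = 0.05447), as did leaving out control mouse 2 (adjusted p = 0.07563). In TPM the sign turned, on a scale that moved all genes: Usp9x had 19.9, 18.4 and 14.3 TPM in CT-26 muscle, against 16.1, 17.7 and 14.5 TPM in control muscle, a log2 difference of 0.11 (adjusted p = 0.6548). On that scale the median of all genes was 0.35, so that Usp9x stood at -0.24 relative to it. With library totals Usp9x was at -0.31 and not called (adjusted p = 0.1162), where the median of all genes was 0.20. Its weighted transcript length was shorter in CT-26 muscle, and TPM divides by length.

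The other called members, Usp39 and Usp53, are listed as catalytically inactive or atypical. Usp39 is a component of the spliceosome, and Usp53 is found at tight junctions. Usp39 had 29.9, 25.0 and 28.7 CPM in CT-26 muscle, against 18.1, 18.4 and 17.2 CPM in control muscle (0.64 ± 0.12, adjusted p = 0.004011). Usp53 had 27.2, 16.9 and 17.8 CPM in CT-26 muscle, against 12.1, 11.3 and 12.1 CPM in control muscle (0.81 ± 0.19, adjusted p = 0.01156). Both were apart between the groups, and Usp53 was at 0.56 without CT-26 mouse 1, still called. Usp50 and Usp54, the others of this group, were at 0.19 and 0.10 and not called. The 29 members not called in muscle spanned log2 fold changes from -0.35 to 0.42.

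Usp2 moved in both tissues, in opposite directions. It encodes a deubiquitinase whose transcript cycles with the circadian clock in many tissues. In muscle it had 167.4, 183.4 and 162.7 CPM in CT-26 mice, against 236.7, 309.8 and 293.2 CPM in control mice, with all CT-26 values below all control values. The log2 fold change was -0.71 ± 0.14 (adjusted p = 0.006442), called on leaving out any 1 library, but with TPM it was -0.36 and not called (adjusted p = 0.1433). In the hypothalamus it had 34.4, 35.8 and 36.6 CPM in CT-26 mice, against 26.4, 28.7 and 28.03 CPM in control mice. Every CT-26 value there was above every control value, a rise of 0.36 ± 0.06 (adjusted p = 0.007384) that also held on leaving out any 1 library, while with TPM it was 0.42 (adjusted p = 0.07188). The muscle effect minus the hypothalamus effect was -1.09 ± 0.15 (adjusted p = 0.0002485). The gene Gm49380 spans Usp2 on the other strand, with 8 counts over the CT-26 and 124 over the control muscle libraries.

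Of 17 listed circadian clock genes in muscle, 3 rose and 5 fell, with a median of -0.23, where 19.6% of all genes rose and 18.3% fell. Dbp, a clock output factor, fell by 2.89 ± 0.39 on the log2 scale (adjusted p = 0.00113), at 8.34, 28.7 and 16.1 CPM in CT-26 muscle, against 127.4, 122.6 and 141.8 CPM in control muscle. Arntl, the gene of BMAL1, rose by 1.32 ± 0.15 (adjusted p = 0.0005738), and Nr1d1, the gene of the BMAL1 repressor REV-ERB alpha, fell by 0.61 ± 0.17 (adjusted p = 0.02279). The other clock genes that rose were Cry2, by 1.78 ± 0.33 (adjusted p = 0.004365), and Per1, by 0.64 ± 0.22 (adjusted p = 0.04889). In the hypothalamus 3 rose and 2 fell, with a median of 0.04, where 3.94% of all genes rose and 4.83% fell. Tef, a relative of Dbp, rose there by 0.31 (adjusted p = 0.003977), Nr1d1 fell by 0.44 (adjusted p = 0.01492), and Dbp was at -0.06 (adjusted p = 0.7538). The time of day at which tissues were taken is not given in the sources used here, and whether it differed between the groups was not tested.

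**Figure D3:**
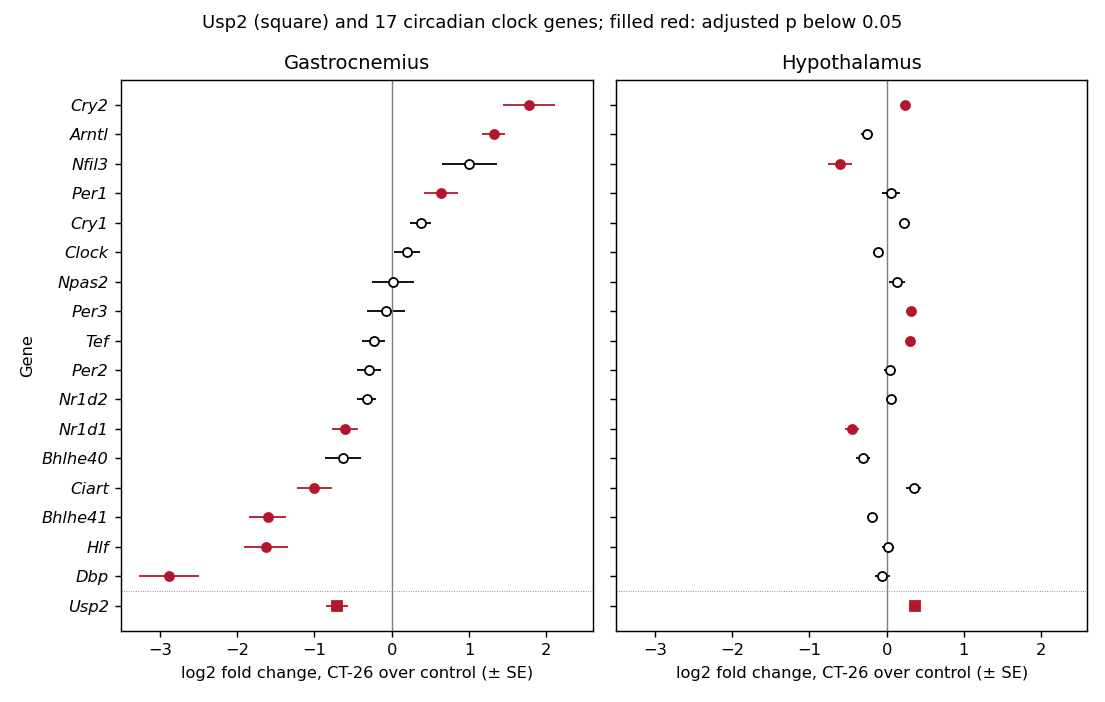
Log2 fold change of CT-26 over control with its standard error (horizontal axes) for Usp2 (square, bottom row) and 17 circadian clock genes, in the gastrocnemius (left) and hypothalamus (right), filled red where the adjusted p is below 0.05. Usp2 lies at -0.71 in muscle and 0.36 in the hypothalamus, and Dbp at -2.89 in muscle and -0.06 in the hypothalamus.

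In the hypothalamus, 2 of 47 tested members rose and 1 fell (4.26% and 2.13%), beside 3.94% higher, 4.83% lower and 8.77% in either direction of all 17961 genes tested. The members' share of calls was therefore near or under the background. Their median log2 fold change was -0.0063, and that of all genes was -0.0032. Usp31, a member whose function is little known, had 48.8, 52.1 and 53.7 CPM in CT-26 mice, against 66.1, 69.3 and 69.8 CPM in control mice. All CT-26 values were lower, by -0.41 ± 0.05 (adjusted p = 0.001905), and the call stood on leaving out any 1 library and with TPM. With the spread of all 12 libraries it was lost (-0.40, adjusted p = 0.1331), and 0 of the 47 members were called in either direction by edgeR, with 3 higher and 2 lower at an unadjusted p below 0.05. Usp40, also little studied, had 30.3, 28.2 and 30.3 CPM in CT-26 mice, against 24.6, 24.9 and 24.7 CPM in control mice. It rose by 0.26 ± 0.06 (adjusted p = 0.03126), a call lost on leaving out any library but the second CT-26 one (adjusted p = 0.0632 to 0.09326) and absent with TPM (0.07, adjusted p = 0.6244). Usp37 came next, at -0.28 ± 0.08 (adjusted p = 0.05138).

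Across the 47 members tested in the hypothalamus, called ones included, 9 stood higher in all CT-26 libraries (19.15%, against 14.7% of all genes). Another 8 stood lower in all CT-26 libraries (17.02%, against 15.6%). The 44 members that were not called spanned -0.58 (Usp43, with 23 to 45 counts per library) to 0.31 (Usp51). Among the named enzymes, Usp19 had 136.5, 134.4 and 130.5 CPM in CT-26 mice, against 130.9, 135.0 and 138.6 CPM in control mice (-0.01 ± 0.05). Usp22 had 289.5, 301.0 and 300.1 CPM in CT-26 mice, against 290.2, 280.7 and 290.6 CPM in control mice (0.05 ± 0.05). These groups overlapped. The large muscle responders had level values here as well. Usp47 had 95.5, 98.8 and 106.8 CPM in CT-26 mice, against 99.8, 97.4 and 103.2 CPM in control mice. Usp53 had 23.6, 24.6 and 25.8 CPM in CT-26 mice, against 28.2, 30.1 and 21.3 CPM in control mice. Usp28 had 15.6, 15.97 and 15.6 CPM in CT-26 mice, against 16.5, 16.7 and 17.7 CPM in control mice. The first of these pairs overlapped widely and so did the second, while all CT-26 values of Usp28 were slightly lower, with no call (-0.11, adjusted p = 0.3646). Usp9x had 287.2, 308.9 and 327.2 CPM in CT-26 mice, against 318.1, 319.3 and 313.5 CPM in control mice. Usp30 had 58.2, 55.3 and 54.4 CPM in CT-26 mice, against 56.3, 57.4 and 58.02 CPM in control mice. Usp13 had 44.2, 42.2 and 48.9 CPM in CT-26 mice, against 43.5, 47.3 and 48.2 CPM in control mice. All of these overlapped. Usp15 was lower in each CT-26 mouse without a call, at 60.2, 64.6 and 69.7 CPM in CT-26 mice against 70.1, 74.8 and 73.1 CPM in control mice (-0.16, adjusted p = 0.1262). Usp12 had 50.4, 50.2 and 46.8 CPM in CT-26 mice, against 44.1, 45.9 and 47.1 CPM in control mice. For Usp1, Usp7, Usp10 and Usp25 the groups were also close, with log2 fold changes of -0.04, 0.05, -0.05 and 0.09. Usp1 had 22.7, 22.2 and 21.8 CPM in CT-26 mice, against 23.8, 22.5 and 22.3 CPM in control mice. Usp7 had 153.4, 145.8 and 163.4 CPM in CT-26 mice, against 146.2, 155.5 and 145.9 CPM in control mice. Usp10 had 80.4, 74.8 and 75.4 CPM in CT-26 mice, against 78.3, 78.8 and 81.3 CPM in control mice. None of these was called. Usp25 had 22.3, 23.4 and 24.6 CPM in CT-26 mice, against 21.3, 22.8 and 22.1 CPM in control mice. Across all tested members the standard errors, from 0.04 to 0.07 for most members, were smaller than in muscle, where they ran from 0.11 to 0.33.

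The test of the difference between tissues asked which members responded unequally. Of the 43 members tested in both tissues, 13 had a more positive CT-26 effect in muscle and 3 a more negative one (30.2% and 6.98%), beside 16.4%, 16.8% and 33.2% in either direction of 13572 genes. With the mouse as a block, which the shared animals allow, these were 9 and 1, and the calls of Usp1, Usp15, Usp20, Usp31, Usp9x and Usp12 were lost (adjusted p = 0.05219 to 0.1128). Those kept under the block were Usp46, Usp28, Usp53, Usp47, Usp42, Usp39, Usp14, Usp30 and Usp16 on the positive side and Usp2 on the negative side. On leaving out any 1 mouse, 7 calls remained in every case: those of Usp46, Usp47, Usp42, Usp39, Usp14, Usp30 and Usp2. Usp53 lost its call without control mouse 1 or 2, and Usp16 without control mouse 3 (adjusted p = 0.05236). Usp28 lost its call without any mouse but CT-26 mouse 2, with 1.13 over all mice and 0.70 without CT-26 mouse 1 (adjusted p = 0.1294). Usp3, called in muscle only, was at 0.26 in the hypothalamus, and its difference between tissues did not pass (0.42 ± 0.17, adjusted p = 0.09022). Usp31, called in the hypothalamus only, differed by 0.47 ± 0.16 (adjusted p = 0.0491), a call lost under the block.

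In control mice the family's make-up differed between the tissues. By TMM-scaled counts 20 members were higher and 22 lower in gastrocnemius than in hypothalamus out of 47 tested (42.6% and 46.8%), beside 38.7% and 47.3% of all 17807 genes and 86.0% in either direction. The scaling decides the split: library totals gave 8 and 35 and TPM gave 7 and 36, as the median of all genes was -0.23, -1.60 and -1.39 in these 3 scalings. Called in the same direction under each of the 4 scalings were 7 higher members (Usp2, Usp13, Usp15, Usp16, Usp25, Usp28 and Usp47) and 22 lower ones.

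Usp2 headed the family in control muscle, with 115.0, 155.5 and 127.1 TPM in gastrocnemius against 15.5, 14.0 and 17.8 TPM in hypothalamus. Usp13 followed with 66.4, 63.9 and 50.2 TPM in gastrocnemius against 6.41, 6.91 and 7.10 TPM in hypothalamus. Usp25 had 25.2, 23.9 and 17.5 TPM in gastrocnemius against 5.33, 5.66 and 5.41 TPM in hypothalamus. In each of these the tissues were far apart. By mean TPM, the order in control muscle was Usp2 (132.5 ± 20.8), Usp13 (60.2 ± 8.71), Usp47 (50.7 ± 7.99), Usp15 (48.3 ± 7.13) and Usp19 (46.1 ± 3.54; SD, n = 3 each), where the intervals of mean ± SD overlapped between each neighbour from Usp13 down and not between Usp2 and Usp13. In CT-26 muscle the order was Usp47, Usp13, Usp2 and Usp15, at 116.5 ± 30.6, 116.0 ± 34.0, 103.0 ± 13.7 and 88.4 ± 16.7 TPM (SD, n = 3 each), with overlapping intervals between neighbours.

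On the other side, Usp11, a relative of Usp4 and Usp15 on the X chromosome, had 0.53, 0.64 and 0.72 TPM in control gastrocnemius against 127.9, 121.8 and 121.5 TPM in control hypothalamus, where it was the most abundant member. Usp29, an imprinted gene beside Peg3, had 0.12, 0.04 and 0.05 TPM in gastrocnemius against 31.2, 30.7 and 32.3 TPM in hypothalamus. Usp22 had 4.21, 3.96 and 3.26 TPM in gastrocnemius against 79.3, 77.1 and 78.6 TPM in hypothalamus. Its relatives Usp27x and Usp51, which can replace it on the SAGA adaptor proteins, were also far lower in muscle. Usp27x had 0.07 to 0.09 TPM in gastrocnemius against 13.2 to 15.5 TPM in hypothalamus. Usp51 had 0 counts over the control gastrocnemius group against 506 over the control hypothalamus group. With a floor of 3 counts over the group, that is at least 163.1-fold lower in gastrocnemius relative to library totals. On that scale the median of all genes was -1.60, against -0.23 with TMM, so a TMM-scaled bound would be smaller. Usp46 was also lower in control muscle, at 2.41, 2.79 and 1.74 TPM in gastrocnemius against 20.6, 20.5 and 21.1 TPM in hypothalamus.

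**Figure D4:**
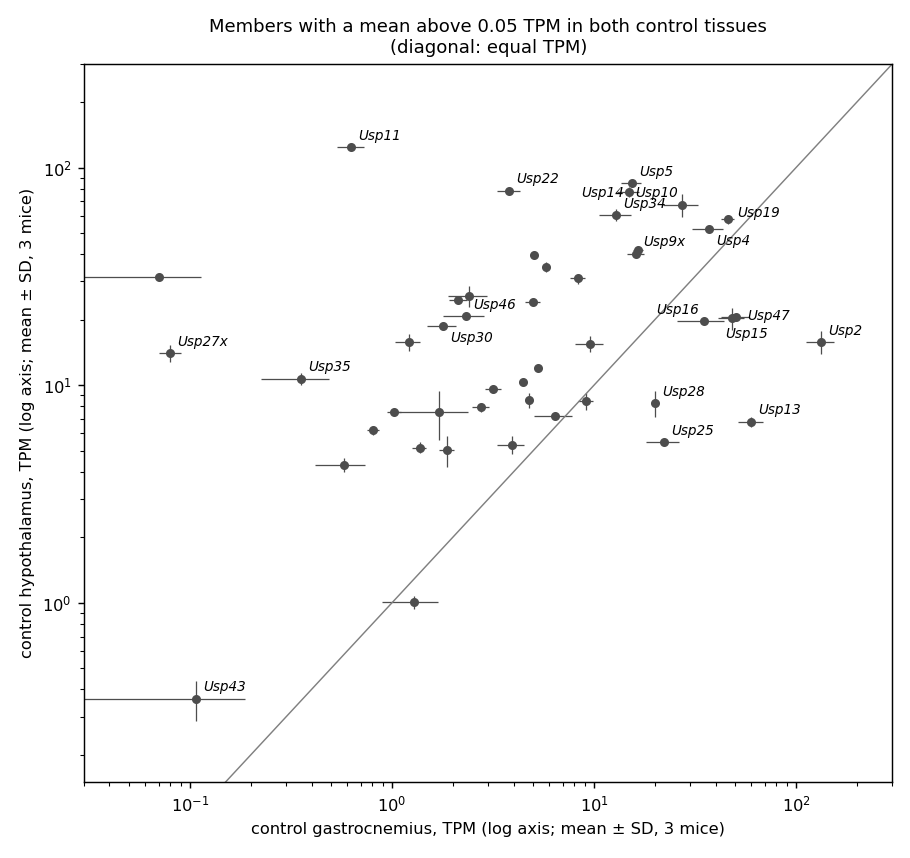
Mean TPM in control gastrocnemius (horizontal) and control hypothalamus (vertical), both on log axes, with bars for the SD over 3 mice, for members above 0.05 TPM in both, and a diagonal at equal TPM. Usp2, Usp13, Usp25 and Usp28 lie right of the diagonal, and Usp11, Usp27x and the point without a name at the left edge, Usp29, lie farthest to its left.

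Some members also changed in the mix of transcripts that the counting assigned. The weighted transcript length, the mean length of a gene's transcripts weighted by their estimated abundance, was below control in every CT-26 muscle library for 8 of 43 members and above it for 2 (18.6% and 4.65%), beside 9.15% and 6.13% of 12131 genes. It shows which annotated transcripts the reads were assigned to and does not name the transcript. Usp9x had 7445, 6982 and 7135 bases in CT-26 muscle, against 8900, 8441 and 8157 bases in control muscle. Usp13 had 5700, 5248 and 5716 bases in CT-26 muscle, against 6320, 6240 and 6675 bases in control muscle. Usp15 had 2246, 2267 and 2238 bases in CT-26 muscle, against 2610, 2547 and 2630 bases in control muscle. In these 3 members the CT-26 mean values were shorter by 15.4%, 13.4% and 13.3% of the control mean. Usp48, Usp21, Usp30, Usp49 and Usp11 were the other shorter ones. Usp20 was longer, at 4570 ± 38.6 bases in CT-26 muscle, against 4152 ± 67.1 bases in control muscle (SD, n = 3 each), and Usp45 was the other longer one. In the hypothalamus 1 of 46 members was shorter (Usp43) and 3 were longer (Usp40, Usp33 and Usp11), beside 6.15% and 7.00% of 14291 genes. For Usp40 this was 4002 ± 43.8 bases in CT-26 mice, against 3603 ± 143.8 bases in control mice (SD, n = 3 each), while its TPM was not called. Coverage along transcripts was not analysed here, and its part in these lengths was not tested.

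**Figure D5:**
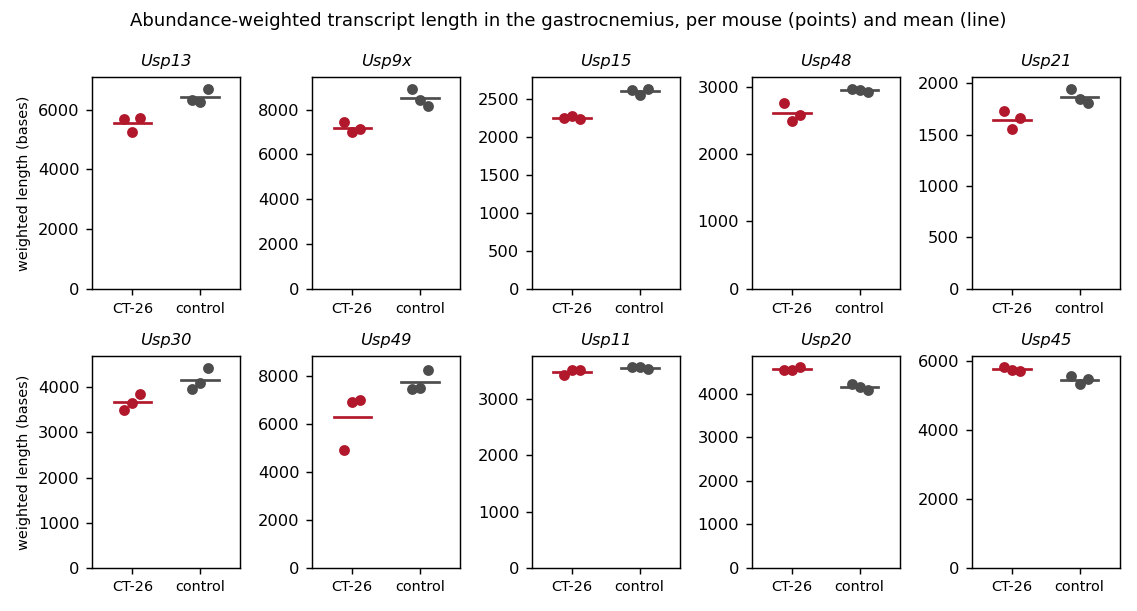
Abundance-weighted transcript length in bases (vertical axes, each from 0) in the gastrocnemius for the 10 members whose CT-26 and control libraries did not overlap, with 1 point per mouse and a line at the mean. The first 8 panels are lower in CT-26 muscle, most of all Usp49, where 1 CT-26 mouse lies far under the others, while Usp20 and Usp45 are higher.

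Deubiquitinases outside the family were set beside it from a list of 37 genes. In the gastrocnemius 10 of 36 tested rose and 3 fell, with a median of 0.12, where 19.6% of all genes rose and 18.3% fell. Otulin, which removes linear ubiquitin chains, had 55.8, 20.1 and 46.3 CPM in CT-26 muscle, against 11.9, 8.87 and 12.5 CPM in control muscle, a rise of 1.88 ± 0.34 (adjusted p = 0.003927). Its second CT-26 library was the lowest of that group, as for Usp28 and the macrophage markers, whose part in these values was not tested. Mpnd fell by 1.21 (adjusted p = 0.001895). In the hypothalamus, beside 3.94% and 4.83% of all genes, 1 of 37 rose and 1 fell: Cops5, the protease of the COP9 signalosome, rose by 0.26 (adjusted p = 0.01656), and Josd2 fell by 0.23 (adjusted p = 0.03276). Of 20 listed partner proteins of the family, 6 rose and 1 fell in muscle, with a median of 0.23, where 19.6% of all genes rose and 18.3% fell. Dmwd, a relative of the Usp46 partner WDR20, rose by 1.00 ± 0.11 (adjusted p = 0.0005154). The genes of the Usp46 partners themselves were not called in muscle, with Wdr48 at 0.11 (adjusted p = 0.602) and Wdr20 at 0.21 (adjusted p = 0.2563). In the hypothalamus 1 of the 20 rose, Pink1, a mitochondrial kinase, by 0.27 (adjusted p = 0.01941).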

How the data were processed

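Per the labels' protocols, libraries were made with a directional MGIEasy kit and read as 100 bp pairs. The submitters' processing notes name RSEM 1.3.3, Trim Galore 0.6.6, the aligner STAR 2.7.9a and build GRCm38. The deposited tables hold RSEM expected counts per gene, TPM, FPKM (not used here), and transcript lengths. The strand setting and annotation release are not given in the sources used here. Symbols and coordinates come from GENCODE M21, which named 52135 of 55416 identifiers, and promoters from RefSeq.

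Expected counts were rounded. Each tissue's 6 libraries were tested with edgeR 4.0.16 in R 4.3.3 (filterByExpr, TMM, quasi-likelihood test, Benjamini-Hochberg adjustment over all tested genes, threshold 0.05). Unequal CT-26 effects in muscle and hypothalamus were tested as an interaction over 12 libraries, without a block. Standard errors come from the test statistic. Alternatives used DESeq2 1.42.0 and limma 3.58.1; limma ran on log2(deposited TPM + 0.5). The fits were tested on simulated counts. Labels tie muscle and hypothalamus to the same numbered mouse, which pairs tissues. They do not state that numbers pair CT-26 with control mice. Replicates differed beyond sampling noise in every pair, by a chi-square per gene of 6.31 to 176.0. Each library is 1 mouse.

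The members, lists and rule for named genes were chosen with earlier results of these data known. The rule gives every library for called members (up to 8 per direction and tissue, and 4 per direction between tissues) and for Usp1, Usp2, Usp7, Usp9x, Usp10, Usp13, Usp14, Usp15, Usp19, Usp22, Usp25, Usp28, Usp30 and Usp46 whatever they showed, and up to 4 genes per other list. Usp5, Usp11, Usp20, Usp27x, Usp29 and Usp39 were added after their values were seen. So were the listed partner genes Wdr48, Wdr20, Stam and Stam2 and the clock genes Cry2 and Per1. One member symbol is not reported here.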

Additional observations from a re-analysis of the deposited data

Results flagged for a closer look

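Groups of 3 libraries were not searched for single outlying samples in this flagging. The CT-26 effect of 16 members differed between gastrocnemius and hypothalamus by the interaction test, which is what brought them here. As the muscle effect minus the hypothalamus effect on the log2 scale, it was 1.77 for Usp46, 1.13 for Usp28, 0.90 for Usp53, 0.80 for Usp47, 0.78 for Usp42, 0.69 for Usp39, 0.67 for Usp14, 0.60 for Usp30, 0.58 for Usp16, 0.52 for Usp20, 0.47 for Usp31, 0.42 for Usp15 and 0.36 for Usp1. It was -0.47 for Usp9x, -0.47 for Usp12 and -1.09 for Usp2. The tissues come from the same mice, and with the mouse as a block 9 and 1 of these calls held, while those of Usp1, Usp15, Usp20, Usp31, Usp9x and Usp12 were lost (adjusted p = 0.05219 to 0.1128). For Usp31 the difference came with a fall in the hypothalamus (-0.41) and a muscle value of 0.07. Usp15 and Usp12 were called in neither tissue alone, with 0.27 in muscle and -0.16 in the hypothalamus for Usp15, and -0.35 and 0.10 for Usp12.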

How the results depend on the processing

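Each group held 3 mice, and low members such as Usp35 had 21 to 41 counts per muscle library. In muscle, 12 members were higher and 2 lower. With library totals these were 19 and 1, and with TPM 21 and 0 at a pseudocount of 0.5 and 21 and 0 at 1; the spread from all 12 libraries gave 18 and 4. Usp9x turned to 0.11 at either TPM pseudocount (0.1108 and 0.108), but at a pseudocount of 0.5 it stayed negative, at -0.24, relative to the median of all genes (0.35). Leaving out 1 library gave 8 to 13 higher and 1 to 3 lower, with 1 lower without control mouse 1 or 2. In the hypothalamus, 2 were higher and 1 lower. TPM gave 0 higher at both pseudocounts (3 at an unadjusted p below 0.05), and the spread from all 12 libraries gave 0 higher and 0 lower (3 and 2 unadjusted, edgeR). The lower count was 2 without a low-count filter and 2 with DESeq2, and leaving out 1 library gave 1 to 2 higher and 1 to 2 lower. Between tissues, 13 and 3 members differed; library totals gave 15 and 1, and leaving out 1 mouse gave 7 to 11 and 1 to 3, with 7 and 1 for each control mouse. In control tissues, 20 and 22 became 8 and 35 with library totals and 7 and 36 with TPM. The causes were not tested. DESeq2's size factors within edgeR and a minimum of 1 CPM in 3 libraries kept the muscle counts at 12 and 2. The full DESeq2 fit gave 11 and 2. Replicate numbers were also tried as a block between CT-26 and control mice. Deviations of same-numbered mice from their group means correlated at -0.07, 0.21 and 0.32 in muscle, where differently numbered mice had -0.30 to 0.14. In the hypothalamus these were -0.12, -0.05 and -0.02, against -0.06 to 0.10. With 3 mice per group the correlations cannot decide whether the numbers pair the mice. The block gave 11 and 2 in muscle and 1 and 1 in the hypothalamus. With the mouse as a block between tissues, 9 and 1 members differed; in control tissues 20 and 22 did.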
